A study of Homo sapiens with 16 samples.

Results

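The transcriptome of U2OS, a human cell line from an osteosarcoma that keeps wild-type p53, was compared between cells given hydroxyurea (HU) together with the ATR inhibitor VE-822 and cells given neither drug. The comparison used 8 of the 16 libraries of the study, 4 with both drugs (2 mM HU and 2 µM VE-822 for 4 h) and 4 untreated. Each set of 4 held 2 libraries from cells with a non-targeting siRNA (siNT) and 2 from cells with an siRNA against SETD2 (siSETD2), so the untreated controls of the siSETD2 arm carried the knockdown too. The libraries were compared within siRNA and replicate number (R1 or R2), which gave 4 pairs. The design text gives a time of 48 h after transfection and does not say whether it marks the start or the end of the 4 h. A total of 13030 of 58735 genes, those with a mean of at least 1 FPKM (fragments scaled to exon length and depth) over the 8 libraries, were tested. The study also held 4 libraries with HU alone and 4 with VE-822 alone, at the same doses and for the same 4 h, with the same siRNAs. The knockdown rests on siRNA in 1 cell line, and the labels leave unsaid if R1 and R2 came from separate cultures, so the p-values reflect only how far these libraries spread, possibly for technical reasons.

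HU inhibits ribonucleotide reductase, the enzyme that makes deoxynucleotides, and stalls replication forks. The kinase ATR is recruited to single-stranded DNA at stalled forks and, through CHK1, holds back origin firing and entry into mitosis and protects the forks. With ATR inhibited, stalled forks are known to collapse into double-strand breaks, which activate other kinases such as ATM and DNA-PK. p53, NF-kB and the integrated stress response are transcriptional programmes known to answer DNA damage and other stress, while E2F factors drive genes of the G1/S transition and the DREAM and FOXM1-MMB complexes control genes of G2 and mitosis. SETD2 is the methyltransferase that trimethylates lysine 36 of histone H3.

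The libraries held 22310806 to 31101932 fragments. SETD2 had 8.4, 8.06, 2.01 and 4.17 FPKM in the untreated libraries (here and below in the order siNT R1, siNT R2, siSETD2 R1, siSETD2 R2) and 7.41, 7.34, 2.64 and 3.67 FPKM with both drugs, so all 4 siSETD2 libraries lay below all 4 siNT libraries. Among markers of mesenchymal cells and the osteoblast lineage VIM and SPARC were high. Over the 16 libraries COL1A1 had 7.45 to 39.0 FPKM and RUNX2 0.833 to 6.91 FPKM. CDH11, COL1A2 and ALPL reached at most 1.6, 0.0414 and 0.2145 FPKM. TERT, known to be silent in this line, was at 0 to 0.009 FPKM. Of 18 markers of epithelial, blood, endothelial and neural cells, 5 passed the filter on low values and HBA1 was at 0 in every library. Their summed level was 93.2 to 122 FPKM in the untreated libraries and 74.8 to 116 FPKM with both drugs, carried by KRT18 and KRT8. Across genes, the difference between R1 and R2 correlated at 0.362 to 0.748 between all 15 pairs of the 6 groups without VE-822 alone, and the test therefore blocked siRNA and replicate number.

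HU with VE-822 changed 1022 genes at an adjusted p under 0.05 (limma-trend on log2(FPKM + 1) with Benjamini-Hochberg adjustment), of which 557 were higher (4.27% of the genes tested) and 465 lower (3.57%). Of these, 1017 had the same sign in all 4 pairs, and in 482 the 4 treated libraries lay wholly above or below the 4 untreated ones, against 935 such genes among all tested. The changes were mostly small, with a median size of 0.39 on the log2 scale among called genes, and 30 called genes changed by at least 1. The median over all genes tested was 0.02. Higher genes made up 54.5% of the calls, 72.7% when FPKM were scaled to a common sum and 44.5% after median-ratio scaling over the genes tested, neither of which moved the median over all genes by more than 0.1. Protein-coding genes made up 492 of the higher and 351 of the lower calls. The plot of change against level shows the named genes among them.

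**Figure D1:**
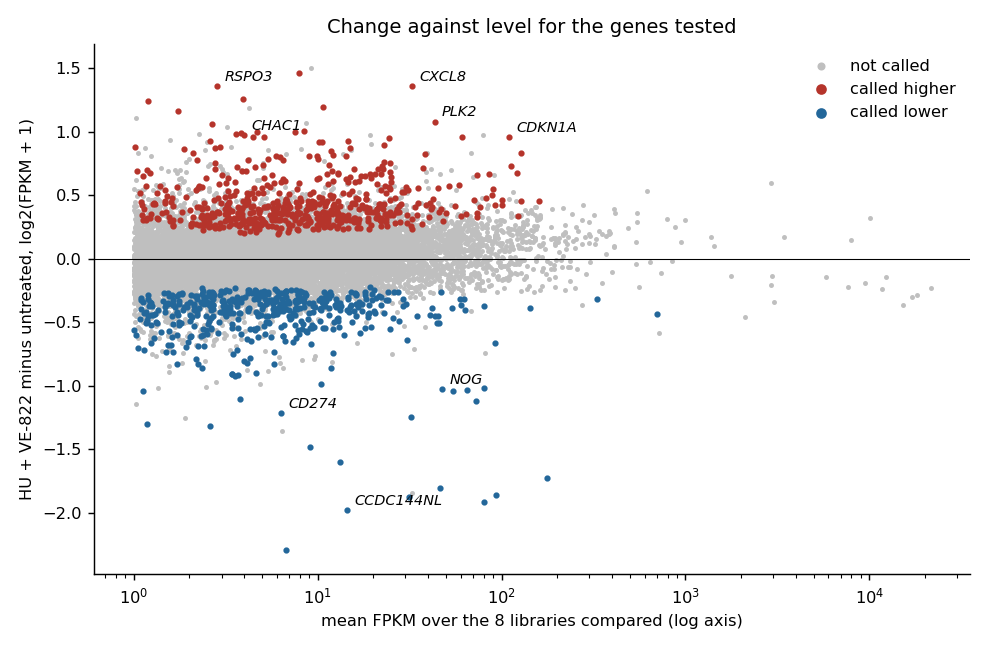
Fitted change of each of 13030 genes (vertical axis, HU with VE-822 minus untreated in log2(FPKM + 1)) against its mean FPKM over the 8 libraries (horizontal log axis), with called genes in red (557 higher) and blue (465 lower) and all others in grey. CXCL8, RSPO3, PLK2 and CDKN1A lie among the largest rises and CCDC144NL, CD274 and NOG among the largest falls.

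The number of calls depended strongly on the pairing and on the libraries in the fit. Fits of the R1 or the R2 libraries alone held 1 library per siRNA and treatment. In them the siRNAs served as the only replicates, so their counts are no replicated result for R1 or R2. The fit as reported also used the 4 libraries with HU alone, to estimate the spread from 12 libraries with 6 residual degrees of freedom; the 8 compared libraries alone gave 44 calls (21 higher, 23 lower). Without the replicate block no gene passed (1405 genes at an unadjusted p under 0.05, against 3548 with the block), and a precision-weighted fit (voom) of the recovered fragments called 1391 genes, 952 of them shared. The R1 libraries alone gave 0 calls and the R2 libraries alone 3727. Leaving out 1 library at a time gave 158 to 2927 calls: the count rose to 2927 without untreated siSETD2 R1, and it fell to 695 without untreated siNT R1, 203 without untreated siNT R2, 158 without untreated siSETD2 R2, 871 and 248 without the siNT libraries R1 and R2 with both drugs, 288 and 201 without the corresponding siSETD2 libraries, 749 and 535 without the HU libraries R1 and R2 of siNT, and 770 and 673 without those of siSETD2. All 85 named genes that were called kept their sign in all settings in which they were tested. This was largely set in advance, because each had the same sign in all 4 pairs and some settings leave the fitted change as it is. Between 26 and 84 of the 85 kept their call when 1 library was left out.

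**Figure D2:**
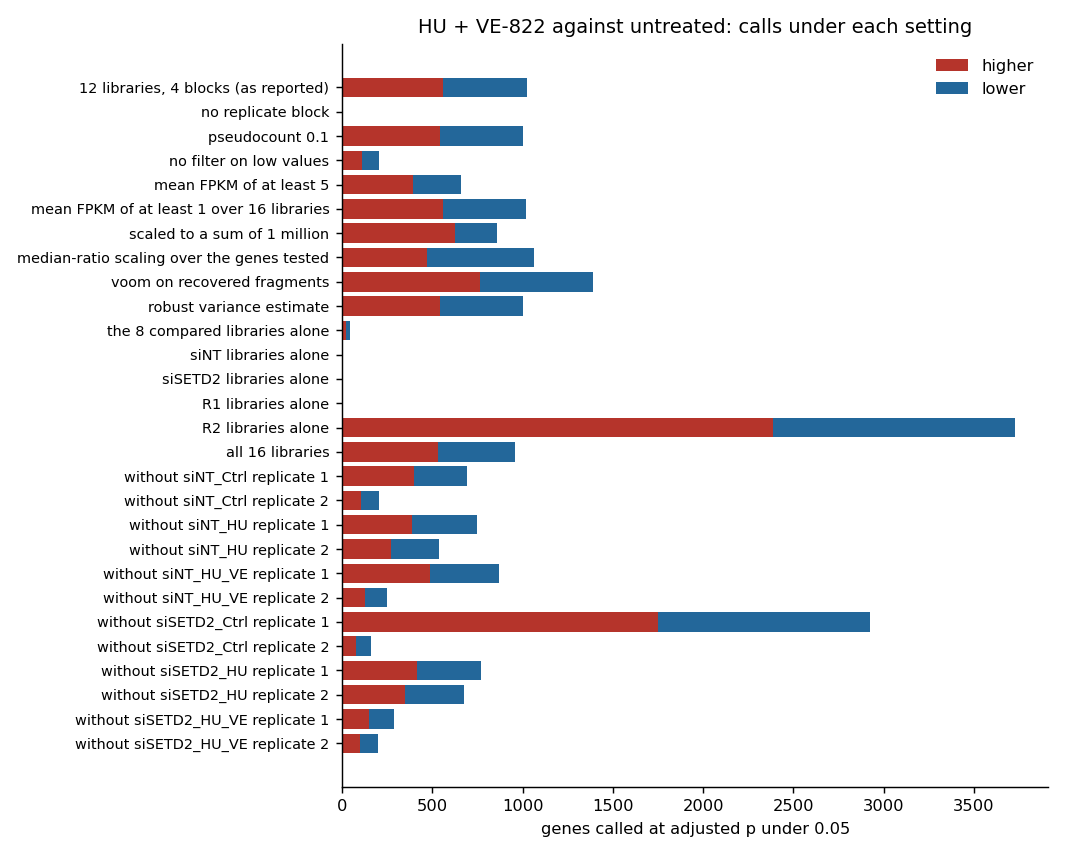
Number of genes called at an adjusted p under 0.05 (horizontal axis; red, higher with both drugs; blue, lower) for HU with VE-822 against untreated under each setting (rows). The top bar is the reported fit with 1022 calls; no bar is seen without the replicate block, and the longest bar is that of the R2 libraries alone with 3727 calls.

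The genes of NF-kB signalling and its cytokine targets had the highest share of calls of any list with at least 10 members tested. Of 29 members tested, 13 rose and none fell, and their median change was 0.46 against 0.02 over all genes. In HU alone the same list had a median of 0.32, and against HU the combined treatment differed by a median of 0.13 with 1 member called, NFKBIZ, an atypical inhibitor-family protein (log2 change -0.34, SE 0.06, adjusted p = 0.027). The 13 calls became 3 to 23 when 1 library was left out, 16 with voom and 0 in the 8 compared libraries alone. The median response was 0.25 and 0.21 in the R1 pairs of siNT and siSETD2 and 0.75 and 0.86 in the R2 pairs, and 11 of the 13 called genes rose more in both R2 pairs than in either R1 pair.

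CXCL8, which encodes the neutrophil chemokine IL-8 (ENSG00000169429, chr4:73740506-73743716 on the plus strand in GRCh38), had 23.8, 13, 35.2 and 7.57 FPKM in untreated cells and 40.3, 46.1, 43.5 and 52.3 FPKM with both drugs. All treated libraries lay above all untreated ones, and the untreated R1 values were higher than the untreated R2 values (log2 change 1.36, SE 0.32, adjusted p = 0.033). The mean level was 19.9 ± 12.2 FPKM untreated, 47.7 ± 6.52 FPKM in HU and 45.6 ± 5.05 FPKM with both drugs (SD, n = 4 libraries). Its call was lost in 9 of the 12 fits that left out 1 library (adjusted p = 0.051 to 0.11). CSF2, the gene of the growth factor GM-CSF, had 6.76, 3.49, 8.62 and 2.99 FPKM untreated and 8.99, 10.3, 11.8 and 14.1 FPKM with both drugs (log2 change 1.01, SE 0.22, adjusted p = 0.027). CCL2, a monocyte chemokine, overlapped between the groups, with 5.34, 8.52, 5.01 and 5.97 FPKM untreated and 7.16, 21, 7.01 and 21.7 FPKM treated, and the high treated values were both from R2 (log2 change 0.92, SE 0.19, adjusted p = 0.026). TNFAIP3, the deubiquitinase A20 that limits NF-kB signalling, rose from 6.74, 5.81, 8.4 and 6.73 FPKM to 9.53, 14.8, 13.2 and 19.7 FPKM without overlap (log2 change 0.92, SE 0.15, adjusted p = 0.013). Among the other called members were the subunits NFKB1 (0.67) and RELB (0.61), the inhibitor NFKBIA (0.75), BIRC3 (0.65), SOD2 (0.80) and IL6 (0.50). VE-822 alone, whose libraries were left out of the fit, held 45.9 to 89.7 FPKM of CXCL8 and 27.2 to 34.4 FPKM of CCL2. Levels in VE-822 alone are given here and below without a test. An offset of those libraries cannot be told apart from an effect of the drug.

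The promoters of the called NF-kB members with the largest changes are shown because this list had the highest share of calls. They are the 250 bases before the RefSeq start (GRCh38.p14), CXCL8 at chr4:73740319-73740568, CSF2 at chr5:132073539-132073788 and TNFAIP3 at chr6:137867009-137867258, all on the plus strand. Capitals mark matches on either strand to a kB pattern (GGNNNTTCC) or to the AP-1 site (TGACTCA), whose letters do not overlap here. CCL2 is named only.
CXCL8: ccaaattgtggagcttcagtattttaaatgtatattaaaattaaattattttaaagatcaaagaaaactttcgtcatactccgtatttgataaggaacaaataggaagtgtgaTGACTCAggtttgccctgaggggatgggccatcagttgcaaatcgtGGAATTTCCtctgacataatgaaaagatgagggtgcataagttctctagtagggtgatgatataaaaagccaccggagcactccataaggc
CSF2: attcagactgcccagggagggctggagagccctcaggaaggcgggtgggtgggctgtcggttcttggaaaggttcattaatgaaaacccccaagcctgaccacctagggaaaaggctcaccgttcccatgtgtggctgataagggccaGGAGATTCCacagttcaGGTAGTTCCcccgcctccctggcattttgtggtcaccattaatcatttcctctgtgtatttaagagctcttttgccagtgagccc
TNFAIP3: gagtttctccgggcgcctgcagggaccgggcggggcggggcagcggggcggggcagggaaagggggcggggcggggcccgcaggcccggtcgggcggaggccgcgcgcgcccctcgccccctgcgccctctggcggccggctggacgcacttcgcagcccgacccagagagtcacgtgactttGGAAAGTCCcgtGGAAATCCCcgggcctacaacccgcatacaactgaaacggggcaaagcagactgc
The CXCL8 promoter held 1 match of each kind, and those of CSF2 and TNFAIP3 held 2 matches each to the kB pattern. The kB pattern, chosen after the list and its promoters were seen, occurred in 14 of the 23 NF-kB promoters at hand (60.9%) and in 1777 of the 8753 promoters of all genes tested (20.3%), and the AP-1 site in 1 of 23 (4.3%) and 244 of 8753 (2.8%). A match is a description of the letters and does not show binding.

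Of 41 p53 targets tested, 12 rose and none fell, with a median of 0.33; the median in HU alone was 0.30, and no member was called between both drugs and HU (median difference 0.00). The count became 4 to 29 when 1 library was left out, 21 with voom and 0 in the 8 compared libraries alone, and it was 18 when FPKM were scaled to a common sum. By pair, the medians were 0.19 and 0.09 in R1 and 0.53 and 0.66 in R2.

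CDKN1A, the cyclin-dependent kinase inhibitor p21 (ENSG00000124762, chr6:36676460-36687339 on the plus strand), had 88.1, 47.8, 124 and 52.2 FPKM untreated and 149, 133, 137 and 146 FPKM with both drugs, a ratio of means of 1.81 (log2 change 0.96, SE 0.21, adjusted p = 0.028). The groups did not overlap, and the untreated R1 libraries were higher than the untreated R2 libraries. Its level in HU was 144, 110.1, 131 and 138 FPKM, and the difference between both drugs and HU was 0.12 (adjusted p = 0.8). The call was lost in 5 of 12 fits without 1 library (adjusted p = 0.051 to 0.094). In VE-822 alone CDKN1A was at 32.8 to 39.1 FPKM, below every untreated library. MDM2, the ubiquitin ligase that degrades p53, had 7.6, 4.02, 8.26 and 3.95 FPKM and 10.0, 7.59, 7.06 and 7.94 FPKM and did not pass (log2 change 0.44, SE 0.15, adjusted p = 0.095); in siSETD2 R1 the treated value lay below the untreated one. PLK2, a polo-like kinase induced by stress, rose from 26.6, 23, 38.3 and 22.2 FPKM to 42.6, 64.6, 53.7 and 75.4 FPKM (log2 change 1.08, SE 0.19, adjusted p = 0.016). GDF15, a secreted stress cytokine, rose by 0.96 (adjusted p = 0.046). BTG2, an antiproliferative gene that is also in the list of immediate early genes, rose by 0.81 (adjusted p = 0.025). SESN2, a stress-inducible regulator of growth signalling and a member of the ATF4 list below, rose by 0.65 (adjusted p = 0.0085). The death receptor gene FAS (0.65) and the phosphatase gene PPM1D (0.59), a feedback regulator of p53, were also called.

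Of 37 immediate early and AP-1 genes, 6 rose and 2 fell, with a median of 0.19. These were shares of 16.2% and 5.41%, against 4.27% and 3.57% of all genes, so the share of falls was near that of all genes. Of 19 BMP, Wnt and growth factor genes 8 rose (42.1%) and none fell (median 0.28, or 0.41 when FPKM were scaled to a common sum). When 1 library was left out the rises of these lists numbered 3 to 17 and 2 to 9. The falls of immediate early genes then numbered 0 to 3. No member of either list was called between both drugs and HU. ATF3, a stress-induced transcription factor of the CREB family, had 5, 4.07, 6.23 and 3.77 FPKM untreated and 10.1, 9.81, 11.6 and 9.94 FPKM treated, without overlap (log2 change 0.99, SE 0.10, adjusted p = 0.0027). FOS, a subunit of AP-1, rose by 0.48 (adjusted p = 0.032) from levels of 1.55 to 2.67 FPKM, JUNB by 0.71 (adjusted p = 0.031) and the nuclear receptor NR4A2 by 0.88 (adjusted p = 0.0021). The falls were DUSP5, a phosphatase of ERK (-0.45), and CYR61, a matrix-associated target of YAP (-0.44), whose libraries overlapped at 532 to 1036 FPKM untreated and 359.6 to 909 FPKM treated. RSPO3, a secreted enhancer of Wnt signalling, was low in untreated cells at 0.602, 0.785, 2.31 and 0.89 FPKM and reached 3.41, 2.83, 7.78 and 4.18 FPKM (log2 change 1.36, SE 0.09, adjusted p = 0.00036). Its level in HU was 3.97, 3.88, 7.14 and 4 FPKM and in VE-822 alone 4.24 to 7.12 FPKM, so each drug group lay above all untreated libraries. INHBA, which encodes a subunit of activin, rose by 0.92 (adjusted p = 0.017) and FST, the antagonist of activin, by 0.65 (adjusted p = 0.0085). NUAK2, a kinase of the AMPK family, rose from 0.998 to 1.79 FPKM to 2.49 to 4.9 FPKM (log2 change 0.93, SE 0.07, adjusted p = 0.00036).

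**Figure D3:**
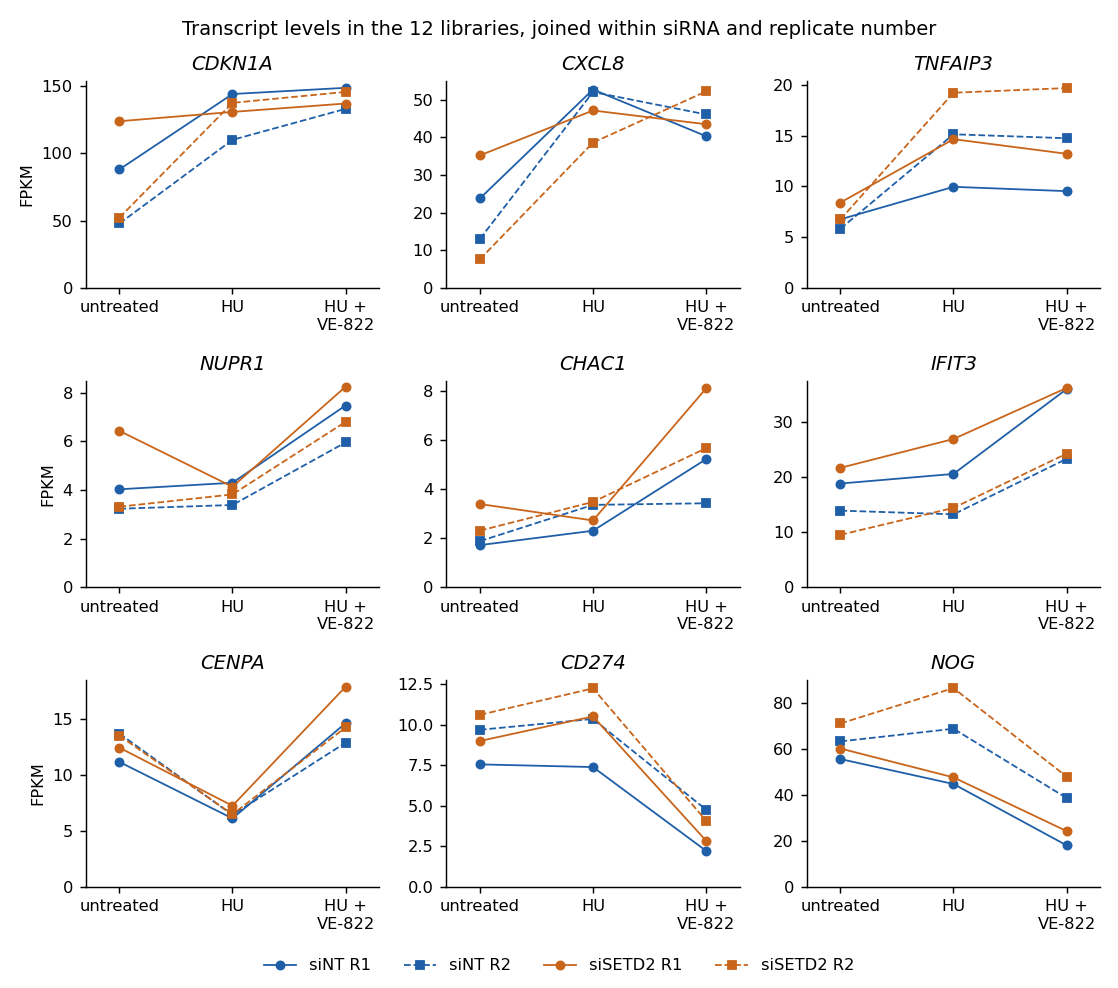
FPKM of 9 genes (vertical axis, from 0) in untreated cells, HU, and HU with VE-822 (horizontal axis) in the 12 libraries of the fit, with points joined within siRNA (blue siNT, orange siSETD2) and replicate number (circles R1, squares R2). CDKN1A, CXCL8 and TNFAIP3 are high in both drug groups, NUPR1, CHAC1 and IFIT3 are highest with both drugs, CENPA is low in HU only, and CD274 and NOG are lowest with both drugs.

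Of 37 genes of the ATF4 and unfolded protein response list, 15 rose and none fell, by 0.27 to 0.97, with a median of 0.36 against 0.10 in HU alone. Against HU itself, the median difference of the members was 0.14, and 3 members were higher (ATF4, DDIT3 and NUPR1) and none lower. The 15 calls became 3 to 22 when 1 library was left out, 22 with voom and 2 in the 8 compared libraries alone, and the 3 against HU became 0 to 11. By pair the median was 0.07 in siNT R1, 0.36 in siNT R2, 0.34 in siSETD2 R1 and 0.48 in siSETD2 R2.

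CHAC1, a glutathione-degrading enzyme induced through ATF4 (ENSG00000128965, chr15:40952962-40956519 on the plus strand), had 1.72, 1.88, 3.39 and 2.31 FPKM untreated and 5.22, 3.43, 8.11 and 5.67 FPKM with both drugs, all above the untreated range (log2 change 0.97, SE 0.17, adjusted p = 0.014). Its level in HU was 2.3, 3.36, 2.72 and 3.48 FPKM, and the difference from HU did not pass (0.70, adjusted p = 0.071). The call against untreated was lost in 2 of 12 fits without 1 library (adjusted p = 0.051 to 0.055). NUPR1, a small stress-induced nuclear protein, had 4.02, 3.23, 6.43 and 3.31 FPKM untreated, 4.29, 3.38, 4.13 and 3.81 FPKM in HU and 7.47, 5.95, 8.24 and 6.8 FPKM with both drugs. It differed from untreated (log2 change 0.66, SE 0.10, adjusted p = 0.011) and from HU (log2 change 0.72, SE 0.10, adjusted p = 0.017), and in VE-822 alone it was at 4.82 to 6.56 FPKM. DDIT3, the transcription factor CHOP, was at 16.5, 12.6, 26.3 and 12.1 FPKM untreated and 28.4, 20.5, 34.4 and 18.4 FPKM treated, higher in each pair although the groups overlapped (log2 change 0.59, SE 0.10, adjusted p = 0.013; against HU 0.66, adjusted p = 0.02). ATF4, the factor that gives the response its name, rose by 0.46 (adjusted p = 0.032; against HU 0.62, adjusted p = 0.03), and ATF5, a related factor, by 0.81 (adjusted p = 0.0021). Among the called genes of amino acid supply, which were chosen for mention after their values were seen, were the cystine transporter SLC7A11 (0.61), the serine synthesis enzymes PHGDH (0.27) and PSAT1 (0.51), MTHFD2 (0.53) and ASNS (0.39).

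CD274, the gene of the immune checkpoint ligand PD-L1 (ENSG00000120217, chr9:5450503-5470566 on the plus strand), fell with both drugs. It had 7.56, 9.7, 9.01 and 10.6 FPKM untreated, 7.4, 10.4, 10.5 and 12.3 FPKM in HU and 2.23, 4.77, 2.85 and 4.09 FPKM with both drugs. The treated libraries lay below all untreated and all HU libraries, at 0.378 of the untreated mean (log2 change -1.22, SE 0.10, adjusted p = 0.00061; against HU log2 change -1.33, SE 0.10, adjusted p = 0.0013). The VE-822-alone libraries were also low, at 2.2, 1.79, 2.59 and 2.34 FPKM. Both calls held in all 12 fits without 1 library, and the fall against untreated was still called in the 8 compared libraries alone; it was lost without the replicate block (adjusted p = 0.182), within 1 siRNA (adjusted p = 0.141 in siNT and 0.135 in siSETD2) and in R1 alone (adjusted p = 0.06). CD274 is known to be induced by interferon, but the other called genes of its list rose. Of 37 interferon-stimulated genes tested, 4 rose and CD274 alone fell, with a median of 0.08. These were shares of 10.8% and 2.7%, against 4.27% and 3.57% of all genes. IFIT3, an antiviral effector, had 18.9, 13.9, 21.7 and 9.54 FPKM untreated and 36.1, 23.4, 36.3 and 24.3 FPKM with both drugs (log2 change 0.90, SE 0.11, adjusted p = 0.0055; against HU 0.67, adjusted p = 0.025). IFIT2, a related antiviral gene, rose by 0.64 (adjusted p = 0.02), the transcription factor IRF1 by 0.77 (adjusted p = 0.0062) and OASL by 0.42 (adjusted p = 0.039). VE-822 alone held 39.7 to 66.1 FPKM of IFIT3, above every library with both drugs. With 1 library left out the rises numbered 2 to 8.

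Several other genes were low with both drugs and not with HU. NOG, the secreted BMP antagonist noggin (ENSG00000183691, chr17:56593699-56595590 on the plus strand), had 55.7, 63.4, 60.3 and 71.2 FPKM untreated, 44.8, 68.9, 47.7 and 86.6 FPKM in HU and 18.1, 38.7, 24.3 and 48.1 FPKM with both drugs. All treated libraries lay below all untreated libraries, and the R1 values were lower than the R2 values (log2 change -1.02, SE 0.15, adjusted p = 0.0085; against HU log2 change -0.96, SE 0.15, adjusted p = 0.021). In VE-822 alone NOG was at 34 to 63 FPKM. F2RL2, a thrombin receptor family member, had 16.8, 19.7, 14.1 and 18.1 FPKM untreated, 19.3, 24.2, 22.5 and 21.9 FPKM in HU and 10.5, 14.2, 12.6 and 14.6 FPKM with both drugs, and it fell by 0.38 against untreated (adjusted p = 0.034) and by 0.72 against HU (adjusted p = 0.014). ATP6V0C, a subunit of the proton pump of lysosomes, was uneven between libraries, with 18.3, 11.5, 11.5 and 19.1 FPKM untreated and 15.5, 4.46, 7.29 and 6.43 FPKM treated (log2 change -0.86, SE 0.21, adjusted p = 0.038). TGFB2, a growth factor of the TGF-beta family, fell by 0.35 (adjusted p = 0.017), lower in each pair although the groups overlapped. It had 3.83, 12.5, 3.26 and 12.4 FPKM untreated and 2.87, 8.85, 2.64 and 9.33 FPKM with both drugs. In VE-822 alone TGFB2 was at 18.2 to 20.1 FPKM, above every untreated library. Of 26 YAP-TEAD targets 3 rose and 4 fell, and of 32 extracellular matrix genes 1 rose (TIMP3, 0.52) and 1 fell (TGFB2). These were shares of 11.5% and 15.4% and of 3.12% each way, against 4.27% higher and 3.57% lower of all genes. Neither list kept a fall when FPKM were scaled to a common sum (2 and 1 rises), and without 1 library the YAP-TEAD list had 1 to 5 rises and 0 to 5 falls and the matrix list 0 to 3 and 0 to 9. Against HU, 177 genes differed in all, 96 higher (0.737%) and 81 lower (0.622%), and 101 of these were also called against untreated; both comparisons share the libraries with both drugs. That count was 0 without the block (816 at an unadjusted p under 0.05, against 2479 with it), 405 with voom and 4 to 885 when 1 library was left out. The highest, 885, came without untreated siSETD2 R1, and the lowest, 4, without the siSETD2 R1 library with HU. Leaving out siNT R2 with HU, siSETD2 R2 with HU, or either siSETD2 library with both drugs (R1 or R2) left 7, 15, 5 and 25, leaving out siNT R1 with HU or the siNT libraries R1 and R2 with both drugs left 63, 60 and 40, and without untreated siNT R2 there were 114.

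Genes of G2 and mitosis were low in HU and near their untreated level with both drugs. Of 71 tested, 4 rose and 1 fell against untreated (5.63%, near the 4.27% of all genes, and 1.41%), with a median of -0.01, while in HU alone 68 were lower than untreated (median -0.38, 16 called). Against HU, 70 of 71 were higher with both drugs (median 0.37), and 19 were called, by 0.41 to 1.07. These 19 calls became 1 to 37 when 1 library was left out, 33 with voom, 11 when FPKM were scaled to a common sum and 0 without the block. The median against untreated differed in sign between the replicate numbers, 0.14 and 0.30 in the R1 pairs and -0.30 and -0.13 in the R2 pairs. It was 0.036 when FPKM were scaled to a common sum.

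CENPA, the centromeric histone H3 variant, had 11.2, 13.7, 12.5 and 13.5 FPKM untreated, 6.12, 6.43, 7.26 and 6.49 FPKM in HU and 14.6, 12.9, 17.9 and 14.3 FPKM with both drugs. The HU libraries lay below all others, and both drugs differed from HU (log2 change 1.07, SE 0.09, adjusted p = 0.0026) and did not pass against untreated (0.21, adjusted p = 0.16). The mitotic kinase gene PLK1 had 21, 24.2, 18.2 and 23.7, 12.9, 16.2, 11.9 and 14.6 and 20.9, 20.5, 22.5 and 19.8 FPKM in the same 3 treatments (-0.05 against untreated, adjusted p = 0.79; 0.56 against HU, adjusted p = 0.03). CCNB1, cyclin B1, was at 89.8, 110.3, 118 and 98.9 FPKM untreated and 101, 114, 138 and 123 FPKM with both drugs, higher in each pair but not called (0.19, adjusted p = 0.16). The 4 rises against untreated were CKS2 (0.48), a small subunit of CDK complexes, CENPN (0.45), a kinetochore protein, HMGB2 (0.37), a chromatin protein, and CCNB2 (0.29), cyclin B2. PSRC1, a spindle protein, was the one fall, with 13.9, 27.1, 16.5 and 26.4 FPKM untreated, 5.77, 6.81, 6.2 and 7.69 FPKM in HU and 12.3, 13, 14.4 and 12.8 FPKM with both drugs (log2 change -0.59, SE 0.15, adjusted p = 0.042); it was lower than untreated and higher than in HU (0.90, adjusted p = 0.027). The CHR element (TTTGAA or TTCGAA), a site of the DREAM complex, occurred in 31 of 60 G2/M promoters (51.7%) and 809 of 8753 promoters of all genes tested (9.2%), and CCAAT in 46 (76.7%) and 3046 (34.8%). The list was written from knowledge of the pathway, and these counts cover its members whether called or not. They describe the list and not the response to the drugs. In bulk RNA, a change in the share of cells in G2 and a change in RNA per cell cannot be told apart.

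**Figure D4:**
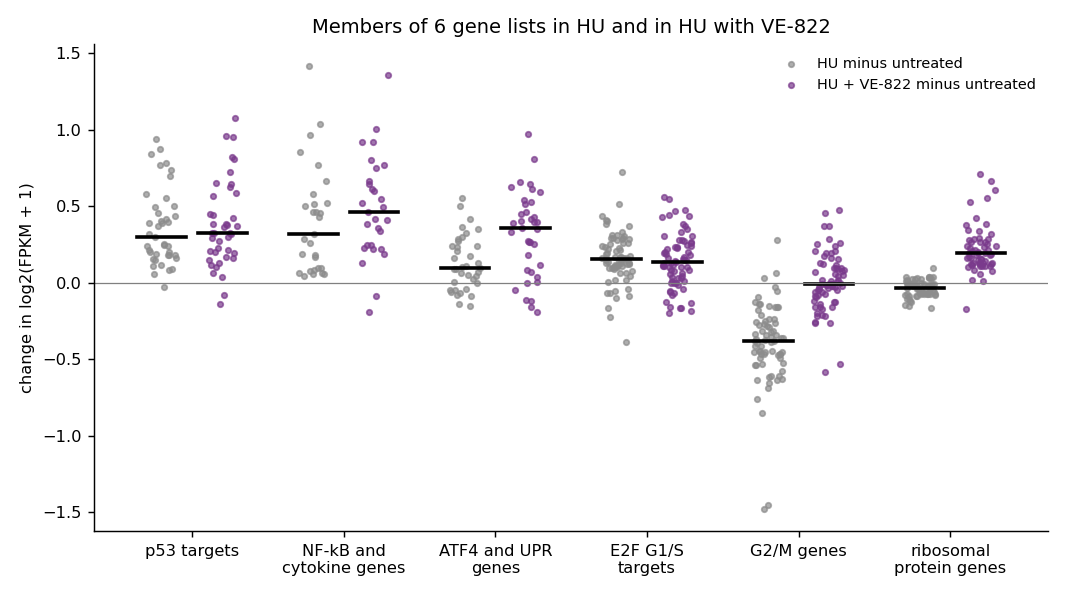
Change against untreated in log2(FPKM + 1) (vertical axis) of each tested member of 6 gene lists (horizontal axis), in HU (grey) and in HU with VE-822 (purple), with the list's median as a black bar. The 2 changes share the untreated libraries. Medians are close for p53 targets (0.30 and 0.33) and E2F targets (0.16 and 0.13), and differ most for G2/M genes (-0.38 and -0.01).

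Of 72 E2F targets of the G1/S transition tested, 11 rose and none fell, with a median of 0.13; the median was 0.16 in HU, and 1 member, the kinase activator DBF4, differed from HU (0.38, adjusted p = 0.03). The median was 0.04 and 0.03 in the R1 pairs and 0.20 and 0.23 in the R2 pairs, and the count became 1 to 25 when 1 library was left out. CCNE1, cyclin E1, had 24.3, 17.5, 28.7 and 17.7 FPKM untreated and 31.1, 27.6, 32.4 and 30.4 FPKM with both drugs, higher in each pair (log2 change 0.47, SE 0.10, adjusted p = 0.025). CCNE2, cyclin E2, was low at 0.757 to 1.52 FPKM untreated and 1.48 to 3.1 FPKM treated (log2 change 0.56, SE 0.07, adjusted p = 0.0067). E2F1 itself had 12.5, 20.02, 14.6 and 25.2 FPKM untreated and 15.5, 33.2, 17.7 and 35.8 FPKM treated (log2 change 0.43, SE 0.10, adjusted p = 0.032); in each treatment its R2 values were above its R1 values. CDC25A, the phosphatase that activates CDK2 and a target of ATR signalling, rose from 11.4 to 14.3 FPKM to 15.9 to 19.4 FPKM (log2 change 0.44, SE 0.10, adjusted p = 0.03), and CLSPN, the adaptor between ATR and CHK1, by 0.55 (adjusted p = 0.036). VE-822 alone held 12.6 to 16 FPKM of CCNE1 and 8.48 to 9.4 FPKM of CDC25A, below every untreated library for both genes.

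Of 28 genes of origin licensing and firing 4 rose, among them MCM2 (0.43) and MCM6 (0.35), subunits of the replicative helicase, and 1 fell, the origin recognition subunit ORC2 (-0.25). These were shares of 14.3% higher and 3.57% lower, against 4.27% and 3.57% of all genes, so the fall was at the share of all genes. The licensing factor CDC6 had 16.2, 19, 18.2 and 15.5 FPKM untreated and 18.3, 22.6, 18.5 and 21.9 FPKM treated (0.22, adjusted p = 0.12). Of 27 dNTP supply genes 2 rose (7.41%, against 4.27% of all genes), among them TYMS (0.37), the thymidylate synthase, while RRM2, the ribonucleotide reductase subunit that HU inhibits, was at 9.66, 10.7, 15.6 and 12.2 FPKM and 10.0, 11.8, 13.7 and 17.2 FPKM (0.11, adjusted p = 0.53). Of 40 genes of the ATR checkpoint and fork protection 7 rose and 3 fell (17.5% and 7.5%). The falls were RAD9A (-0.35) of the checkpoint clamp, MUS81 (-0.29), a nuclease, and SMARCAL1 (-0.25), a fork remodeller. RHNO1 (0.35), a partner of that clamp, was among those that rose. Of 25 genes of the E2F, DP and RB family 4 rose (E2F1, E2F6, LIN9 and E2F3). Without 1 library the rises numbered 0 to 10 for licensing, 0 to 8 for dNTP supply, 0 to 10 for the checkpoint list and 0 to 7 for the E2F family, and the checkpoint list had 0 to 7 falls. When FPKM were scaled to a common sum 1 fall was left in the checkpoint list and none in licensing, and none of these lists had a call in the 8 compared libraries alone. Of 14 replication-dependent histone genes 1 fell (7.14%, against 3.57% of all genes), HIST2H2AC (-0.45, adjusted p = 0.021), at 0.911 to 2.01 FPKM untreated.

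Among the remaining lists few genes passed. Of 59 ribosomal protein genes 58 had a positive change with a median of 0.19, but 1 was called, RPS29 (0.71, adjusted p = 0.035), and the pair medians were 0.07 and -0.18 in R1 and 0.44 and 0.45 in R2; without untreated siSETD2 R1, 41 were called. None of 19 heat shock genes was called. Of 24 cholesterol synthesis genes 1 rose, INSIG1 (0.54), a regulator of the pathway that also differed from HU (0.73, adjusted p = 0.03), and 1 fell, HSD17B7 (-0.27). These shares, 4.17% each way, were near those of all genes (4.27% higher and 3.57% lower). Of 30 enzymes and readers of H3K36 methylation 2 rose (6.67%, against 4.27% of all genes), the demethylase KDM2A (0.29) and the reader PHF19 (0.45), and SETD2 itself differed by -0.04 (adjusted p = 0.78). None of the 13 mitochondrially encoded proteins' genes was called (median -0.19), and neither were the tested markers of U2OS or of other cell types.

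**Figure D5:**
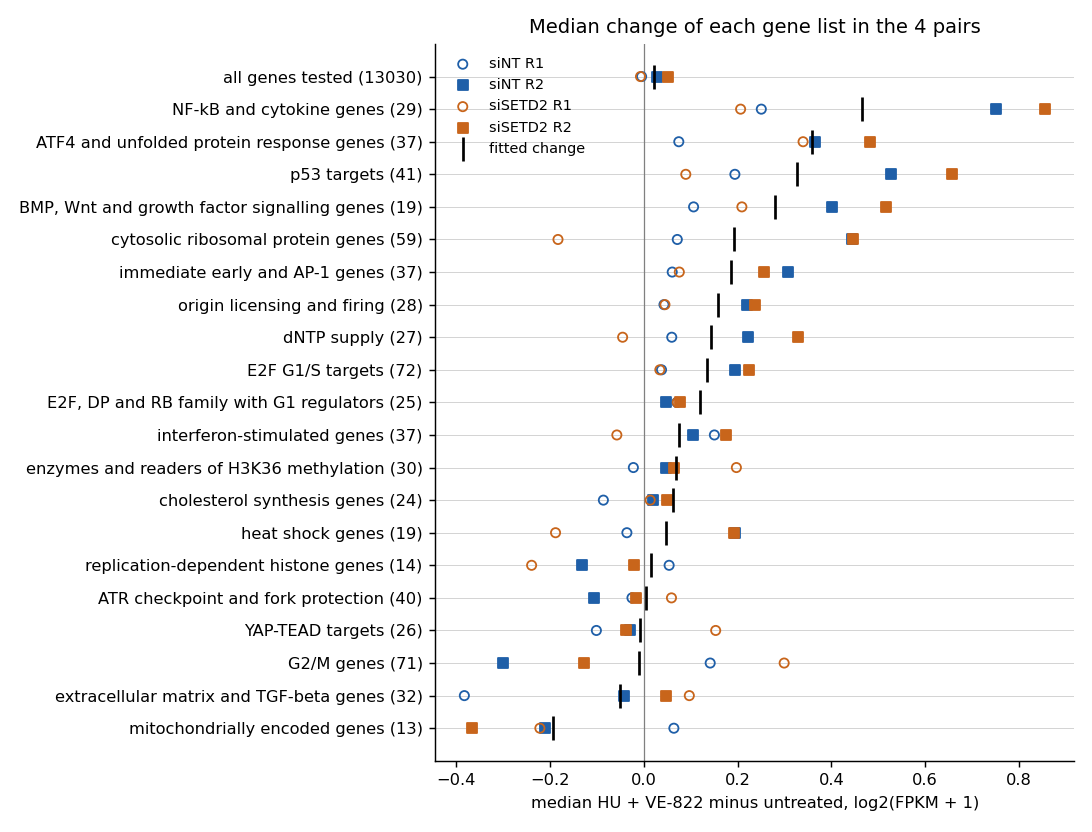
Median change of each gene list with at least 10 members tested (rows, number tested in brackets) in log2(FPKM + 1) (horizontal axis) in the 4 pairs (blue siNT, orange siSETD2; open circles R1, filled squares R2), with the median of the fitted changes as a black tick. For NF-kB genes and p53 targets both R2 pairs lie right of both R1 pairs, and for G2/M genes the R1 and R2 pairs lie on opposite sides of 0.

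The largest falls included those of mitochondrial tRNA genes, pseudogenes and the protein-coding gene CCDC144NL. Of 22 mitochondrial tRNA genes tested, 20 had a negative change and 10 were called, by -0.99 to -1.91, with a median of -1.01 against -0.51 in HU. MT-TR, the arginine tRNA, had 119, 86.4, 240.4 and 68.9 FPKM untreated and 52.8, 18, 39.4 and 20.3 FPKM with both drugs, without overlap (log2 change -1.91, SE 0.27, adjusted p = 0.0079). These genes have a median exon length of 69 bases and lie among the other genes of the mitochondrial genome. In simulated data most false calls of this fit fell on genes with short exons. The simulation gave all genes the same spread beyond counting error, so it cannot show how short genes vary in these libraries. Those false calls were not split by level, so whether this holds for short genes at the levels seen here was not tested. CCDC144NL, a coiled-coil protein gene (chr17:20836447-20896140, minus strand), had 12.3, 40.3, 6.94 and 39.1 FPKM untreated, 3.01, 3.36, 2.14 and 3.55 FPKM in HU and 4.13, 4.89, 3.33 and 4.54 FPKM with both drugs (log2 change -1.98, SE 0.32, adjusted p = 0.012). The untreated values were high in R2, and those of both drug groups were low in all libraries. AC090774.2 (chr17:20855946-20857317, plus strand) lies within it on the other strand and fell by 2.29 (adjusted p = 0.0032); with the use of strand not given, fragments of the pair cannot be told apart. Pseudogenes AC233702.1 (-1.60), AC073464.1 (-1.48), SPATA31C2 (-1.32) and AC097374.1 (-1.10) fell too, and their mean levels in HU were no higher than with both drugs. Of the 15 largest rises, 8 were of short RNAs or pseudogenes, such as RN7SL2 (1.19), a signal recognition particle RNA, RPSAP47 (1.46) and HMGN2P5 (0.99), copies of RPSA and HMGN2 that can share reads with their parent genes, MIR6797, which lies within RPS19, and SNORD59A (0.98), which lies within ATP5F1B.

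No difference in the response between siSETD2 and siNT passed the test. The interaction term called 0 of 13030 genes (0%; 364 at an unadjusted p under 0.05), and voom also called 0 (272 at an unadjusted p under 0.05). The smallest adjusted p was 0.918, of the long noncoding RNA AC025176.1 (difference siSETD2 minus siNT -1.32, SE 0.17), and the next 4 genes by p were RNU7-186P, RNA5SP385, GUSBP9 and MIR1206, all under 5 FPKM on average. CDKN1A rose by 1.11 in siNT and 0.81 in siSETD2, and CD274 changed by -1.15 and -1.28. The list medians in siNT and siSETD2 were 0.44 and 0.50 for NF-kB genes, 0.37 and 0.30 for p53 targets and 0.14 and 0.14 for E2F targets. They had opposite signs for matrix genes (-0.20 and 0.12), YAP-TEAD targets (-0.10 and 0.08) and G2/M genes (-0.09 and 0.08), and lay apart for mitochondrially encoded genes (-0.05 and -0.33) and ribosomal protein genes (0.26 and 0.12); these differences between list medians were not tested. The interaction fit had 4 residual degrees of freedom, it called 10 genes with no filter on low values, and its p-values do not show that the responses were alike.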

How the data were processed

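RNA was sequenced from 16 libraries of U2OS cells, 2 for each of 8 groups of siRNA and drug. The authors deposited FPKM values in one table, and raw counts were not used. STAR 2.6.1d, featureCounts 1.5.0-p3, FastQC and DESeq2 1.26.0 ran upstream on hg38, per the submitters' processing notes; for their parameters and for strand the entry is "not given in the sources used here". All 58735 identifiers occur in GENCODE release 29, from which symbols, positions and merged exon lengths were taken. FPKM times exon length times 1 factor per library gave whole fragments, within 0.01, for 100% of values, and showed median-ratio scaling by factors of 0.839 to 1.22 in the deposited values.

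Genes whose mean over the 8 compared libraries reached 1 FPKM were tested on log2(FPKM + 1) with limma 3.58.1 (limma-trend, robust estimation off) in R 4.3.3. The fit held the 12 libraries without VE-822 alone, 1 block for each siRNA and replicate number, and terms for HU and for HU with VE-822 (prior degrees of freedom 3.73). P-values were adjusted over the 13030 genes by Benjamini-Hochberg, with 0.05 as threshold. Fold changes on this scale understate changes of low genes. Replicate numbers pair the libraries by their correlated deviations (0.362 to 0.748); no culture or day shared by a number is named in the labels. The 4 libraries with VE-822 alone were left out of the fit because earlier results of these data showed that they stand apart. Across genes their difference between R1 and R2 correlated at -0.0544 to 0.297 with that of the other 6 groups. Their levels were not tested, and an offset of these libraries cannot be told apart from an effect of VE-822.

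Named genes are the 15 largest called rises and falls with the same sign in 4 pairs and a mean of at least 2 FPKM, called members of each list (at most 6, otherwise the 4 largest changes), 12 chosen genes, the 8 largest changes each way against HU, and the 5 smallest p of the siRNA difference; these are 101 genes. Genes given in brief beside them were chosen after their values were seen. The members, the comparison, the use of 12 libraries and the gene lists were chosen with earlier results of these data known. Some lists share members, such as CDC25A and CLSPN (E2F targets and checkpoint), BTG2 (p53 targets and immediate early genes) and TGFB2 (matrix and YAP-TEAD). Their counts are therefore not independent of each other. Promoters are the 250 bases before RefSeq starts, matched by symbol for 8753 of the genes tested, and motifs were searched on both strands. The fit was tested on simulated data, in which most false calls fell on genes with short exons. All genes were simulated with the same spread beyond counting error.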

Additional observations from a re-analysis of the deposited data

Results flagged for a closer look

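Among the responses of 101 named genes in the 4 pairs, 2 had 1 pair that lay far from the others, by Dixon's criterion at its 95% critical value for 4 values (the gap to the nearest value over the whole range). Chance flags about 1 in 20 such sets, so 2 of 101 is no more than chance gives. RSPO3 rose by 1.1 in siNT R2, and the other pairs reached up to 1.46, with a gap of 0.85 of the range. SETD2 differed by 0.27 in siSETD2 R1 against a lowest value of -0.16 in the other pairs, with a gap of 0.907 of the range.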

How the results depend on the processing

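The settings were other pseudocounts, filters, scalings, variance estimates and subsets of libraries. For HU with VE-822 against untreated, with 1022 calls, the count was 0 without the replicate block, 205 with no filter on low values, 660 with a mean of at least 5 FPKM, 44 in the 8 compared libraries alone, 0 in siNT alone, 1 in siSETD2 alone, 0 in R1 alone and 3727 in R2 alone. It was 1002 with a pseudocount of 0.1, 1018 with the filter over 16 libraries, 858 scaled to a common sum, 1062 after median-ratio scaling, 1391 with voom, 1001 with robust variance and 959 with all 16 libraries. Against HU, with 177 calls, it was 0 without the replicate block, 4 with no filter, 94 scaled to a common sum and 405 with voom. The difference between siRNAs, with 0 calls, gave 10 with no filter. Leaving out 1 library at a time gave 158 to 2927, 4 to 885 and 0 to 3 calls for the 3 results. No called named gene changed sign under these settings, which was largely set in advance because each had the same sign in all 4 pairs. Of the 85, 20 kept their call in the 8 compared libraries alone, 24 with no filter and 80 with voom. Apart from fewer libraries or more genes tested, where the setting itself differs, the cause was not tested. The libraries held 22310806 fragments or more, and the part of counting error in the calls of short and low genes was not measured.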

Other observations

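Genes outside the lists were also among the calls; those named here were chosen after their values were seen. HEXIM1, an inhibitor of the elongation factor P-TEFb, had 12.4, 18.5, 15.02 and 19.1 FPKM untreated (siNT R1, siNT R2, siSETD2 R1, siSETD2 R2) and 18.5, 36.3, 20.9 and 38.8 FPKM with both drugs (log2 change 0.73, SE 0.11, adjusted p = 0.0089 in limma-trend), and 28.5 to 40.5 FPKM in VE-822 alone. MEPCE, which caps the 7SK RNA of the same complex, rose by 0.67 (adjusted p = 0.016), and POLR2A, the largest subunit of RNA polymerase II, by 0.60 (adjusted p = 0.024). SQSTM1, the autophagy receptor p62, rose by 0.66 (adjusted p = 0.015). H1F0, a linker histone, fell from 77.1, 145, 91.3 and 139 FPKM to 50.2, 89.0, 58.7 and 85.1 FPKM (log2 change -0.66, adjusted p = 0.0079) and was lower still in HU, at 44.3, 57.1, 39.1 and 61.4 FPKM.

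Protein-coding genes differed by genomic length. The median change with both drugs was 0.08 for 901 genes of up to 5 kb and -0.05 for 621 genes of over 200 kb. Of the 901 short genes 46 were called higher and 36 lower, and of the 621 long genes 11 and 25. Of all 10592 protein-coding genes tested, 492 were called higher and 351 lower. The share called lower was similar in the short and the long genes. In the R2 pairs of siNT and siSETD2 these medians were 0.246 and 0.23 for the shortest genes and -0.144 and -0.037 for the longest. The order was the reverse in siSETD2 R1, at -0.182 for the shortest and 0.094 for the longest genes, and in siNT R1 the medians were -0.022 and -0.109.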
